A study of Mus musculus with 6 samples.

Results

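Sertoli cells are the somatic cells that enclose the germ cells in the testis cords, and the 10 genes described here, Sox9, Gata4, Gata1, Wt1, Amh, Inha, Inhbb, Dhh, Fshr and Cldn11, are textbook genes of that cell type. They were taken as the array probes that carry one of these gene names and are no control spots, read on all 6 arrays. Each gene had 1 probe, so that the 10 genes rest on 10 of the 55681 distinct probes, and all 10 were among the 24543 genes tested. RNA came from whole testes of newborn male mice at postnatal day 0, of FVB.129/Sv mixed strain, with 2 animals per genotype and 1 single-colour (Cy3) array per animal. The study set out to compare testes whose germ cells lack Sin3a, a scaffold protein of histone deacetylase complexes, with hemizygous and wild-type testes. VSKO mice (Vasa-cre;Sin3a deleted/floxed) carried 1 deleted and 1 floxed allele and had no functional Sin3a allele in their germ cells. HEMI mice (Vasa-cre;Sin3a deleted/+) had 1 functional allele in their germ cells, and WT mice (Vasa-cre;Sin3a +/+) had both alleles functional in all cells. All 3 groups carried the Cre recombinase, which is driven by Ddx4 (also called Vasa or Mvh), a germ cell gene. Sertoli cells are therefore not the cells in which this Cre is meant to act, and the labels do not say how many functional alleles the Sertoli cells of VSKO and HEMI mice had.

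SOX9 is the transcription factor that sets the supporting cells of the fetal gonad on the Sertoli path, and WT1, GATA4 and their partners are needed for the gonad to form and for that path to be taken. Sertoli cells then secrete hormones of the transforming growth factor β family: AMH, which makes the Müllerian ducts regress, and the inhibins, which restrain follicle-stimulating hormone (FSH) release from the pituitary. They also secrete DHH, which acts on Leydig and peritubular cells, they respond to FSH through its receptor, and they seal the cords with tight junctions that need claudin 11. In newborn mice they divide, and the junctional barrier forms later.

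The probe sequences of both hormones whose probes reach the end of the coding sequence are shown because every level below is a hybridisation to such a stretch. The probe of Amh lay at chr10:80270334-80270393 and that of Inha at chr1:75506675-75506734, both on the plus strand of build mm9. In the Amh probe the capitals mark the stop codon.
Amh: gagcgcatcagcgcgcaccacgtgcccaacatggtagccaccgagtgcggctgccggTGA
Inha: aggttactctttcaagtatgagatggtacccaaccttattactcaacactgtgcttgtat
The Amh probe held 68.3% G and C and the Inha probe 38.3%, so that signals of different probes cannot be set against each other. Levels of single genes are compared only within a gene. The summed levels of lists given below are compared only between arrays. Such a sum adds linear signals, so that its brightest probes weigh the most. The other probes are given by position only. They lay at chr11:112648809-112648868 (plus strand) for Sox9, chr14:63817858-63817917 (minus) for Gata4, chrX:7536392-7536451 (minus) for Gata1 and chr2:105013656-105013715 (plus) for Wt1. Those of Inhbb, Dhh, Fshr and Cldn11 lay at chr1:121312160-121312219 (minus), chr15:98723465-98723524 (minus), chr17:89384292-89384351 (minus) and chr3:31062922-31062981 (plus), all in mm9.

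Windows of 250 bases before an annotated start of the gene, from RefSeq on GRCm38.p6, were found for 6 of the 10 genes. Those of Cldn11, the gene that differed most, and of Fshr, whose E box is a known promoter element, are printed 5′ to 3′ along the gene's strand. They lie at chr3:31149670-31149919 (plus) and chr17:89200676-89200925 (minus). Capitals mark matches on either strand to GATA (the core of GATA factor sites), CACGTG (an E box), CCAAT and GGGCGG (a GC box).
Cldn11: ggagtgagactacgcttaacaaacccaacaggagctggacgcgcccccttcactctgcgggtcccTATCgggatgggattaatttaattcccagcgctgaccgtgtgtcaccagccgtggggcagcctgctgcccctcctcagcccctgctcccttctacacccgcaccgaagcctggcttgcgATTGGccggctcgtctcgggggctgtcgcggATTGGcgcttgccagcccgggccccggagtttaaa
Fshr: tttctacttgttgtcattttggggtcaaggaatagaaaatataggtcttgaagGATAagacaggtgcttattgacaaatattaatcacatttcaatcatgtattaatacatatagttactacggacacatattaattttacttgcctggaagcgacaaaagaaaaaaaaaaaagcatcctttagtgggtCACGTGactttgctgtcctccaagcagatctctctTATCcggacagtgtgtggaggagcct
The Cldn11 window held CCAAT on the minus strand 66 and 35 bases before the start and 1 GATA match 185 bases before it. The Fshr window held CACGTG 61 bases before the start and GATA matches 197 and 26 bases before it. No matches overlapped in either window. GATA occurred in 6 of the 6 Sertoli windows, but also in 53.62% of all 32851 windows of this length. CACGTG was found in 1 of the 6 (Fshr) against 6.021% of all windows, CCAAT in 2 (Inha and Cldn11) against 33.85%, and GGGCGG in 3 (Gata1, Dhh and Inhbb) against 32.74%. AACAAT (a SOX core), AAGGTCA (a steroidogenic factor site) and TATAAA were found in 0 of the 6, against 9.424%, 4.079% and 12.37%. The first part of the Inha window reads in frame as coding sequence of inhibin α, so that this window lies within the gene. Its GATA and CCAAT matches, counted above, are therefore no promoter matches. All matches given here are letters in a window and no measure of binding.

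The arrays shared 1 slide and 1 scan time; VSKO and HEMI were in its first row and WT in the other. Slide row and genotype therefore cannot be told apart in the comparisons with WT, whereas VSKO and HEMI shared a row. Between 59.2% and 64.5% of non-control spots were well above background, and 0 were saturated. Levels are log2 of the processed signal minus the array's 75th percentile, so that 0 is the signal which 75% of spots stay under. The 2 arrays per group limit the precision. Sin3a itself was at 0.61 and 0.38 in VSKO, 0.89 and 0.89 in HEMI and 1.09 and 1.11 in WT, an order that follows the labels without overlap. The difference of VSKO from WT was -0.60 ± 0.13 (SE; limma adjusted p = 0.134), in tissue where most cells are not germ cells.

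The probes of all 10 genes were well above background on all 6 arrays, and so in all 3 genotypes. Probes of 22350 genes were as well, beside the 24543 genes tested, so that detection alone does not set the 10 apart. In none of the 3 comparisons did a Sertoli gene pass an adjusted p of 0.05. The largest differences were those of Cldn11, whose mean was 1.93-fold above WT in VSKO and 2.21-fold above WT in HEMI. In VSKO against WT, 0 of 10 passed, where 0.966% of all genes did (237 genes; 0.346% higher and 0.619% lower). Without WT 1 or without WT 2, 0 genes passed there, and 2616 or 2813 had an unadjusted p under 0.05. In HEMI against WT, 0 of 10 passed, against 0.118% of all genes (29 genes; 0.0326% higher and 0.0856% lower). In VSKO against HEMI, 0 of 10 passed, against 0.143% (35 genes; 0.102% higher and 0.0407% lower). At an unadjusted p under 0.05, Cldn11 was the only one of the 10 in VSKO against WT, where 14.7% of all genes came under it (7.23% higher, 7.5% lower). It was also the only one in HEMI against WT, where 12.4% did (4.76% higher, 7.67% lower). In VSKO against HEMI it was 0 of 10, against 7.69% (4.43% higher, 3.26% lower). The median difference over the 10 genes was 0.04 in VSKO minus WT, 0.04 in HEMI minus WT and 0.05 in VSKO minus HEMI, beside -0.01, -0.02 and 0.02 over all genes. In each comparison 6 genes were above 0 and 4 below. Both comparisons with WT share the WT arrays, and all differences come from the same 6 arrays. Whole testes were measured, so a lower signal from fewer Sertoli cells and one from less RNA per Sertoli cell cannot be told apart.

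**Figure D1:**
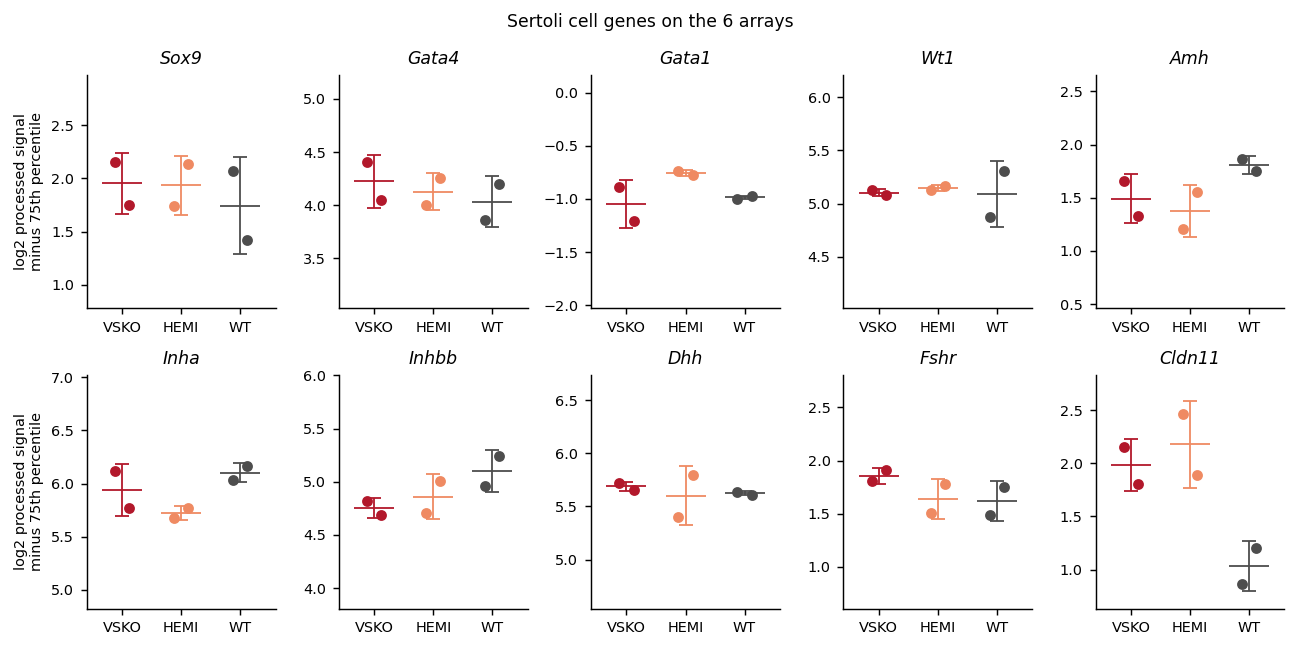
Level of each of the 10 Sertoli cell genes on each array (log2 processed signal minus the array's 75th percentile), with 1 point per animal, the group mean as a horizontal line and the SD (n = 2) as bars. Every panel spans the same number of log2 units; only in the panel of Cldn11 do both WT animals (0.87 and 1.20) lie below all 4 others (1.81 to 2.47).

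Among the transcription factors, Sox9 had the widest spread between animals of 1 genotype. Its levels were 2.16 and 1.75 in VSKO, 1.74 and 2.13 in HEMI, and 2.07 and 1.42 in WT. Every group overlapped with the others, and the lowest array of all was WT 2. The group means were 1.95 ± 0.29 in VSKO, 1.93 ± 0.28 in HEMI and 1.74 ± 0.46 in WT (SD, n = 2). The difference was 0.21 ± 0.29 (SE) for VSKO minus WT, 0.19 ± 0.29 for HEMI minus WT and 0.02 ± 0.29 for VSKO minus HEMI. The 95% interval of the first ran from -0.52 to 0.94.

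The Sox9 probe was printed 10 times on each array, which shows the spread between spots of an array but not the error of labelling or of the array. The SD between spots of 1 array was 0.04 to 0.06, after 2 outlier spots on VSKO 1 and 4 on HEMI 1 were left out. The SD between animals within a genotype was 0.35, higher than that of 81.8% of all genes, whose median was 0.17. With all spots kept, the level was 2.17 on VSKO 1 and 1.75 on HEMI 1, close to the values above.

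**Figure D2:**
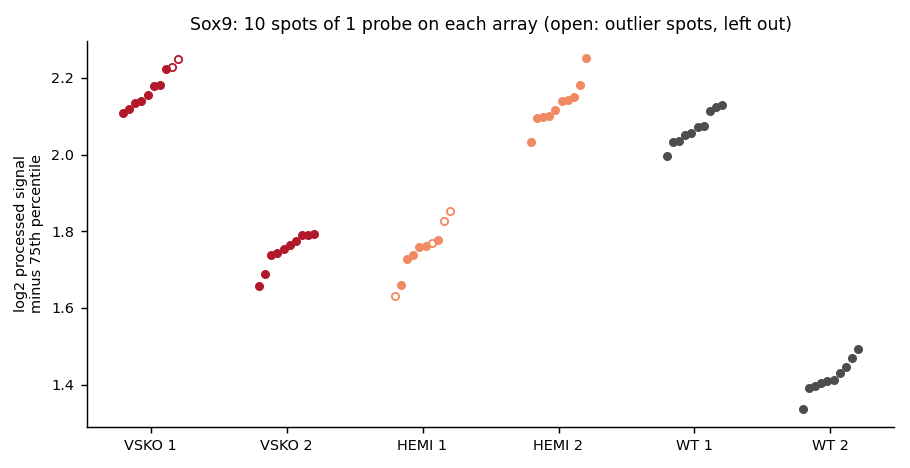
Level of each of the 10 spots of the Sox9 probe on each array (log2 processed signal minus the array's 75th percentile), sorted within the array, with outlier spots open. Without the outlier spots the SD within an array is 0.04 to 0.06, and the means of the 2 WT arrays are 2.07 and 1.42.

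Gata4, a zinc finger factor of the early gonad and of Sertoli cells, was at 4.40 and 4.05 in VSKO, 4.0 and 4.25 in HEMI, and 3.86 and 4.20 in WT. The 3 ranges overlapped. The difference from WT was 0.19 ± 0.20 in VSKO and 0.09 ± 0.20 in HEMI. Wt1, a zinc finger factor that maintains the Sertoli state, was at 5.12 and 5.08 in VSKO, 5.13 and 5.17 in HEMI, and 4.87 and 5.31 in WT. Both carriers lay inside the range of the WT animals, and the difference of VSKO from WT was 0.01 ± 0.17 (95% interval -0.43 to 0.46).

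Gata1, which Sertoli cells share with red cell precursors, had a probe signal 20.3 to 44.1 times its local background, the lowest such ratio of the 10. Its levels were -0.89 and -1.21 in VSKO, -0.74 and -0.78 in HEMI, and -1.0 and -0.97 in WT. HEMI lay above both other groups without overlap, and VSKO enclosed WT. The difference was 0.23 ± 0.15 for HEMI minus WT (adjusted p = 0.588) and -0.29 ± 0.15 for VSKO minus HEMI (adjusted p = 0.823). Of 8 erythroid marker genes, 4 were above background, and their summed level was 6.76 and 8.34 in VSKO, 6.54 to 6.62 in HEMI and 6.81 to 6.83 in WT. This sum is nearly that of Hba-a1 alone, an α-globin gene. The median of the 4 markers relative to each gene's own mean was -0.23 and 0.99 in VSKO, -0.49 and -0.22 in HEMI and 0.00082 and 0.086 in WT. By both measures VSKO 2, the array with the lowest Gata1, was the highest, while the median on VSKO 1 lay within the range of HEMI. Hba-a1, Alas2 and Slc4a1 were each highest on VSKO 2. The remaining marker, Klf1, was not, with -4.15 and -4.16 in VSKO, -4.30 and -3.88 in HEMI and -3.80 and -3.22 in WT. The part of red cells in the Gata1 level was not tested.

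Factors around these 4 were read from a list of 17 genes of gonadal fate, of which 16 were tested and Sry was too dim. None of the 16 passed in any comparison. Among those under an unadjusted p of 0.05 in VSKO against WT were Six4, 0.80 ± 0.16 higher (adjusted p = 0.116), and Gata6, 0.38 ± 0.13 higher. SIX4 is a homeodomain factor that acts upstream of Sry, and GATA6 is a relative of GATA4. In HEMI, Six4 was above WT by 0.43 ± 0.16 and Gata6 by 0.48 ± 0.13, while Gadd45g, a signalling adaptor of sex determination, was at -0.56 ± 0.21. In VSKO against HEMI, Sox10 was at -0.80 ± 0.22 (adjusted p = 0.381). Of the 16, 3 were higher and 0 lower at an unadjusted p under 0.05 in VSKO against WT (7.23% and 7.5% of all genes). In HEMI against WT, 3 were higher and 1 lower (4.76% and 7.67%). The list's median was 0.05, 0.18 and 0.12 in the 3 comparisons (VSKO minus WT, HEMI minus WT and VSKO minus HEMI).

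The 3 hormone genes had means below WT in both carriers, and none passed the test. Amh was at 1.66 and 1.33 in VSKO, 1.20 and 1.55 in HEMI, and 1.87 and 1.75 in WT. Both WT animals lay above all 4 carriers. The difference from WT was -0.31 ± 0.19 in VSKO (95% interval -0.79 to 0.16; limma adjusted p = 0.511), a 1.24-fold lower level, and -0.43 ± 0.19 in HEMI (-0.90 to 0.05; adjusted p = 0.441), a 1.35-fold lower one. VSKO and HEMI overlapped and differed by 0.11 ± 0.19.

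Inha, the α subunit that makes a dimer an inhibin, was at 6.12 and 5.77 in VSKO, 5.68 and 5.77 in HEMI, and 6.04 and 6.17 in WT. The WT animals lay above both HEMI animals, whereas VSKO 1 fell between them. The difference from WT was -0.38 ± 0.16 in HEMI (-0.79 to 0.03; adjusted p = 0.426) and -0.16 ± 0.16 in VSKO. Inhbb, the βB subunit of inhibin B and activin B, was at 4.82 and 4.69 in VSKO, 4.71 and 5.01 in HEMI, and 4.96 and 5.24 in WT. Here both VSKO animals lay under both WT animals, and HEMI overlapped with each. The difference from WT was -0.35 ± 0.17 in VSKO (-0.79 to 0.09; adjusted p = 0.434) and -0.24 ± 0.17 in HEMI.

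With 2 arrays against 2, a large share of all genes did not overlap between groups. In VSKO against WT, 3 Sertoli genes (Dhh, Fshr and Cldn11) were higher and 2 (Amh and Inhbb) lower without overlap, where 45.7% of all genes did not overlap (22.3% higher, 23.4% lower). In HEMI against WT, Gata1 and Cldn11 were higher and Amh and Inha lower, where 49.3% of all genes did not overlap (21% higher, 28.4% lower). In VSKO against HEMI, Inha and Fshr were higher and Gata1 and Wt1 lower, where 32.9% did not (18.8% higher, 14.1% lower). The 5, 4 and 4 of 10 are near these shares.

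Receptors, Smads and binding proteins of the same hormone family were read from a list of 24 genes, of which 23 were tested and 0 passed in any comparison. At an unadjusted p under 0.05 there were 0 of 23 in both comparisons with WT (14.7% and 12.4% of all genes) and 1 in VSKO against HEMI (7.69%). That gene was Fst, which encodes the activin-binding follistatin, at -0.84 ± 0.33 (adjusted p = 0.646). In VSKO against WT, Fst was at -0.66 ± 0.33 and Acvr1b, an activin receptor, at -0.46 ± 0.23. Amhr2, the receptor of AMH, was at 4.94 and 5.02 in VSKO, 5.03 and 5.23 in HEMI and 4.81 and 4.82 in WT. Its WT animals were the lowest, the opposite of Amh, and the HEMI minus WT difference was 0.31 ± 0.13 (adjusted p = 0.416).

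Dhh, the Hedgehog ligand of Sertoli cells, was at 5.72 and 5.66 in VSKO, 5.40 and 5.80 in HEMI, and 5.64 and 5.61 in WT. HEMI enclosed both other groups. The difference of VSKO from WT was 0.07 ± 0.17 (-0.35 to 0.48), and that of HEMI from WT was -0.02 ± 0.17. Of 13 response genes and partners of Hedgehog signalling, 0 passed in any comparison. Gli1, the transcription factor whose own level follows Hedgehog input, was at 4.24 and 3.85 in VSKO, 3.81 and 3.87 in HEMI and 3.70 and 3.68 in WT. Its difference of VSKO from WT was 0.35 ± 0.16 (adjusted p = 0.404), and the list's median was 0.03 there.

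Fshr, the receptor through which FSH drives Sertoli cell growth, was at 1.81 and 1.91 in VSKO, 1.51 and 1.78 in HEMI, and 1.49 and 1.75 in WT. Both VSKO animals lay above the other 4, VSKO 1 narrowly. The difference was 0.24 ± 0.16 for VSKO minus WT (-0.17 to 0.65; adjusted p = 0.561) and 0.02 ± 0.16 for HEMI minus WT. Of 12 partners of the receptor's signalling, 0 passed. Under an unadjusted p of 0.05, 1 was higher and 3 lower in VSKO against WT (7.23% and 7.5% of all genes). For HEMI against WT it was 0 higher and 2 lower (4.76% and 7.67%). Prkar2b, a regulatory subunit of protein kinase A, was at -0.84 ± 0.18 in VSKO against WT (adjusted p = 0.134) and at -0.71 ± 0.18 in HEMI against WT (adjusted p = 0.235). Nr4a1, an immediate early nuclear receptor, was at 3.74 and 3.73 in VSKO, 3.87 and 3.82 in HEMI and 4.96 and 6.54 in WT. The WT animals were the highest and far apart from each other, and the differences from WT were -2.01 ± 0.50 in VSKO and -1.90 ± 0.50 in HEMI (adjusted p = 0.173 and 0.245). Both genes are also made by other testis cells. Creb1, another of the 12, ran the other way, with -1.17 and -1.47 in VSKO, -1.50 and -1.31 in HEMI and -1.68 and -1.92 in WT. Its difference of VSKO from WT, 0.48, was the highest of the list.

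Cldn11, the claudin of the Sertoli cell tight junction, gave the largest difference of the 10 in both comparisons with WT. Its levels were 2.15 and 1.81 in VSKO, 2.47 and 1.89 in HEMI, and 0.87 and 1.20 in WT. Both WT animals lay below all 4 carriers, and VSKO and HEMI overlapped. The means were 1.98 ± 0.24 in VSKO, 2.18 ± 0.41 in HEMI and 1.04 ± 0.23 in WT (SD, n = 2). VSKO exceeded WT by 0.95 ± 0.26 (0.30 to 1.59), or 1.93-fold, with a limma p of 0.0129 and an adjusted p of 0.197. HEMI exceeded WT by 1.14 ± 0.26 (0.49 to 1.79), or 2.21-fold, with a p of 0.00587 and an adjusted p of 0.190. The difference between VSKO and HEMI was -0.20 ± 0.26 (-0.85 to 0.45). In size, the difference was above that of 93.8% of all genes in VSKO minus WT and of 97.2% in HEMI minus WT.

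**Figure D3:**
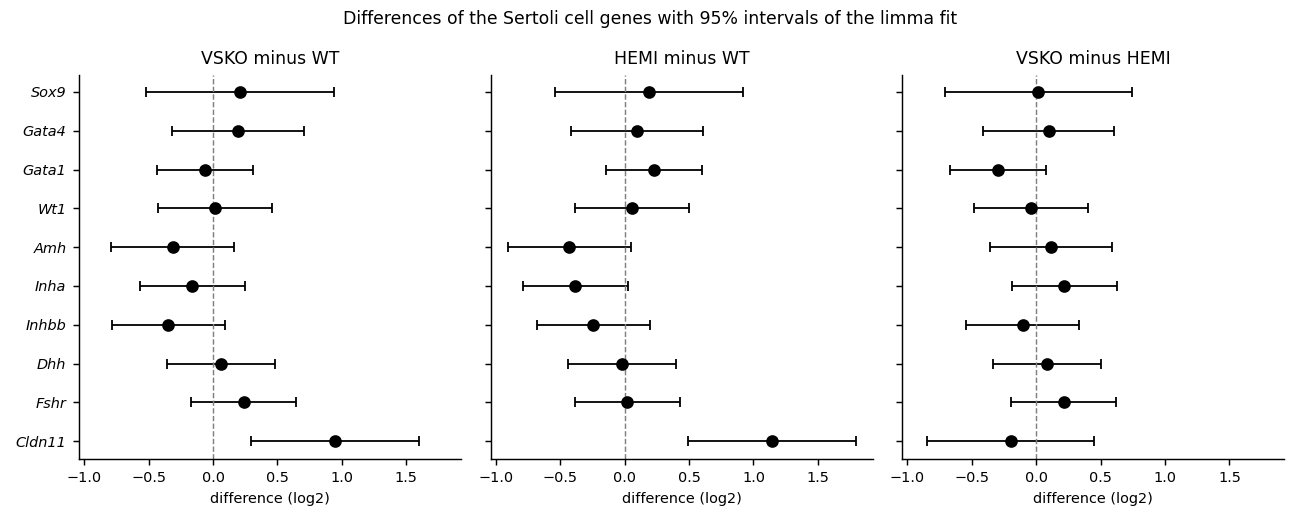
Differences of the 10 Sertoli cell genes in the 3 comparisons (log2; points are the fitted differences and bars their 95% intervals from limma). In both comparisons with WT the interval of Cldn11 alone lies off 0, at 0.30 to 1.59 and 0.49 to 1.79, before adjustment over all genes.

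Other junction genes were read beside it. Of 14 claudin genes tested, a family looked at after the values of Cldn11 were seen, 0 passed in any comparison. Cldn11 alone of the 14 had an unadjusted p under 0.05 in VSKO against WT, where 14.7% of all genes did. In HEMI against WT, Cldn11, Cldn5 (0.45 ± 0.17) and Cldn1 (-0.45 ± 0.17) did, beside 12.4% of all genes. The claudin median was 0.08 in VSKO minus WT and 0.26 in HEMI minus WT. Of 18 tight and gap junction partners 17 were tested and 0 passed. Under an unadjusted p of 0.05, 1 was higher and 1 lower in VSKO against WT (7.23% and 7.5% of all genes). For HEMI against WT it was 4 higher and 2 lower (4.76% and 7.67%). Cgn, which encodes the junction adaptor cingulin, was at 3.50 and 3.30 in VSKO, 3.30 and 3.28 in HEMI and 2.96 and 2.84 in WT, and lay above WT by 0.50 ± 0.13 (adjusted p = 0.184) and 0.39 ± 0.13 (adjusted p = 0.340). Marveld2, which encodes tricellulin, went apart in the carriers, with -0.21 and -0.54 in VSKO, 0.99 and 1.19 in HEMI and 0.12 and 0.72 in WT. Its difference of VSKO from HEMI was -1.46 ± 0.25 (adjusted p = 0.153). Jam2, a junctional adhesion molecule, was at -0.46 ± 0.16 in HEMI against WT.

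The markers of other cells of the sample were read beside Cldn11, because claudins are also made by duct epithelia, endothelia and interstitial cells. Of 8 markers of the mesonephric duct and rete, 1 rose in VSKO against WT: Lhx1, a homeodomain factor, by 1.25 ± 0.15 (adjusted p = 0.0433), a call lost without WT 1 or WT 2. Of all genes, 0.346% were called higher in VSKO against WT. In HEMI against WT Lhx1 was at 1.52 ± 0.15 (adjusted p = 0.0526). The summed level of these 8 markers was 3.19 to 3.82 in VSKO, 3.47 to 3.85 in HEMI and 3.05 to 3.21 in WT. This sum follows its brightest probe, Krt8, which was at 3.0 and 3.66 in VSKO, 3.63 and 3.28 in HEMI and 2.85 and 3.03 in WT. The median of the 8 markers, each taken relative to its own mean over the 6 arrays, was -0.29 and 0.28 in VSKO, 0.61 and -0.18 in HEMI and -0.43 and -0.12 in WT, and overlapped between all 3 groups. Gene by gene, however, 8 of the 8 had a mean above WT in HEMI, with a median difference of 0.39. There 4 lay higher and 0 lower without overlap, against 21% and 28.4% of all genes. In VSKO minus WT 6 were above 0 and 2 below, with a median of 0.21. Endothelial markers (8 of 8 tested) summed to 5.09 to 5.14 in VSKO, 5.01 to 5.09 in HEMI and 5.30 to 5.32 in WT, a sum that follows the brightest probes, Egfl7 and Kdr. Their median relative to each gene's own mean was 0.20 and -0.071 in VSKO, -0.12 and -0.071 in HEMI and 0.0047 and 0.12 in WT, where VSKO overlapped with both other groups and VSKO 1 was the highest array. The part of duct or endothelial cells in the Cldn11 level was not tested.

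The same arrays differed in other cell types as well. Of 12 fetal Leydig cell markers tested, 1 fell in VSKO against WT, Cyp17a1, a steroid synthesis enzyme, by 1.40 ± 0.16 on the log2 scale (adjusted p = 0.0425), also lost without WT 1 or WT 2. Of all genes, 0.619% were called lower there. Under an unadjusted p of 0.05, 5 of the 12 were lower in VSKO against WT (7.5% of all genes) and 0 higher. For HEMI against WT it was 6 lower (7.67%) and 0 higher. The summed Leydig level, weighted to bright probes such as Hsd3b1 and Fdx1, was 7.15 to 7.21 in VSKO, 6.99 to 7.22 in HEMI and 7.65 to 7.89 in WT. The Leydig median relative to each gene's own mean was -0.042 and -0.23 in VSKO, -0.31 and -0.20 in HEMI and 0.23 and 0.52 in WT. Of 14 germ cell markers, 0 passed in any comparison, with a median of -0.34 in VSKO minus WT and -0.28 in HEMI minus WT. Under an unadjusted p of 0.05, 1 of the 14 was higher and 5 lower in VSKO against WT (7.23% and 7.5% of all genes). For HEMI against WT it was 0 higher and 5 lower (4.76% and 7.67%). Their summed level, weighted to the bright probes of Mael and Tex101, was 5.18 to 5.24 in VSKO, 5.09 to 5.26 in HEMI and 5.23 to 5.43 in WT. The germ cell median relative to each gene's own mean was above 0 on both WT arrays (0.083 and 0.40) and below 0 on the other 4. The sum of the 10 Sertoli genes was 7.61 to 7.80 in VSKO, 7.53 to 7.73 in HEMI and 7.67 to 7.84 in WT, and overlapped between all 3 groups. It is weighted to bright probes, Inha and Dhh first. The median of the 10 relative to each gene's own mean was 0.099 and -0.11 in VSKO, -0.17 and 0.11 in HEMI and -0.034 and 0.059 in WT, and also overlapped. The sum of the other 28 Sertoli cell genes, read below, was 9.22 to 9.31 in VSKO, 9.15 to 9.39 in HEMI and 9.426 to 9.435 in WT. By this sum, in which Clu is the brightest gene, WT lay above all 4 carriers. The median of the 28 relative to each gene's own mean was 0.059 and -0.19 in VSKO, -0.072 and 0.081 in HEMI and 0.032 and 0.093 in WT, and overlapped. Interstitial progenitor, peritubular, endothelial and macrophage lists and the 12 proliferation genes held 0 genes that passed in any comparison. The part of cell makeup in the Sertoli gene levels was not tested.

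**Figure D4:**
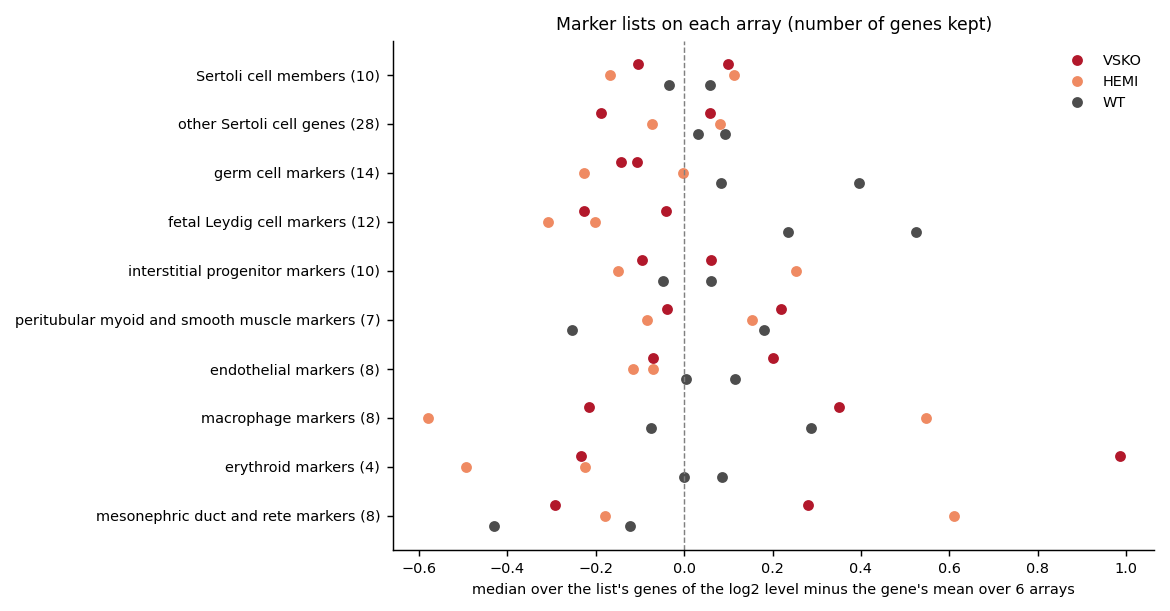
Median over the genes of each cell type list of the level minus the gene's mean over the 6 arrays (log2), with 1 point per array and the number of genes kept in parentheses. Both Sertoli lists lie between -0.19 and 0.11 on every array, whereas the Leydig list is above 0 on both WT arrays and below 0 on the other 4.

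A further 28 Sertoli cell genes, all of them tested, widen the view beyond the 10. None passed in any comparison, and the medians were -0.09, -0.06 and -0.03 in VSKO minus WT, HEMI minus WT and VSKO minus HEMI. At an unadjusted p under 0.05 there were 4 of 28 in the first (1 higher, 3 lower), against 14.7% of all genes. There were 7 of 28 in the second (3 higher, 4 lower), against 12.4%, and 4 of 28 in the third (1 higher, 3 lower), against 7.69%. The first share is near that of all genes and the other two are above it, and that excess was not tested. Defb19, a β-defensin of Sertoli cells, was at 5.63 and 5.45 in VSKO, 5.34 and 5.63 in HEMI and 6.22 and 6.09 in WT. WT lay above the 4 carriers, and the differences were -0.61 ± 0.16 (adjusted p = 0.180) and -0.67 ± 0.16 (adjusted p = 0.207). Hsd17b1, a steroid dehydrogenase, was at 2.79 and 2.83 in VSKO, 2.66 and 3.12 in HEMI and 3.46 and 3.41 in WT, with -0.62 ± 0.18 in VSKO against WT. Aard ran the other way, with 4.64 and 4.6 in VSKO, 4.75 and 4.89 in HEMI and 4.27 and 4.35 in WT.

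For other genes of this list HEMI was the group apart. Vnn1, which encodes vanin 1, was at 2.35 and 2.59 in VSKO, 1.20 and 1.78 in HEMI and 2.50 and 2.40 in WT. HEMI was the lowest, with a difference of VSKO from HEMI of 0.97 ± 0.23 (adjusted p = 0.282). Rhox5, an X-linked homeobox gene of Sertoli cells, was at 0.90 and 0.53 in VSKO, 1.52 and 1.52 in HEMI and 0.56 and 1.02 in WT. Here HEMI was the highest, by 0.73 ± 0.21 over WT (adjusted p = 0.292). For Tsx, VSKO was the group apart, with -4.37 and -4.36 in VSKO, -3.91 and -3.78 in HEMI and -4.01 and -3.94 in WT. Its difference of VSKO from HEMI was -0.52 ± 0.12 (adjusted p = 0.268).

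Of the 14 genes of the ovarian pathway, which opposes the Sertoli path, 13 were tested and 0 passed in any comparison. Wnt4, the signal of ovary formation, was at 2.20 and 1.86 in VSKO, 1.30 and 1.15 in HEMI and 1.19 and 1.23 in WT. VSKO lay above both other groups, by 0.82 ± 0.16 over WT (adjusted p = 0.112) and 0.80 ± 0.16 over HEMI (adjusted p = 0.207). Lef1, a transcription factor of WNT signalling, was at -0.56 ± 0.12 in VSKO against WT (adjusted p = 0.127). In HEMI against WT, Lgr5, a receptor of R-spondins, was at 0.55 ± 0.20 (adjusted p = 0.373), the only gene of the list with an unadjusted p under 0.05 there. Foxl2, the factor that maintains granulosa cells, was at -0.48 ± 0.21 in HEMI against WT (adjusted p = 0.438).

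Across the 6 arrays the 10 genes did not move as a block. Over their 45 pairs Pearson's r ran from -0.80 to 0.85 with a median of 0.18, and 30 pairs were above 0. The highest values were r = 0.85 for Amh and Inha and 0.72 for Amh and Inhbb, whereas the remaining hormone pair, Inha and Inhbb, had 0.63. Cldn11 ran against these hormone genes, with r = -0.80 to Amh, -0.65 to Inhbb and -0.59 to Inha. Gata4 and Wt1 had r = 0.64, and Sox9 and Wt1 had -0.57. These values describe n = 6 arrays that share their genotype groups and the slide rows.

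**Figure D5:**
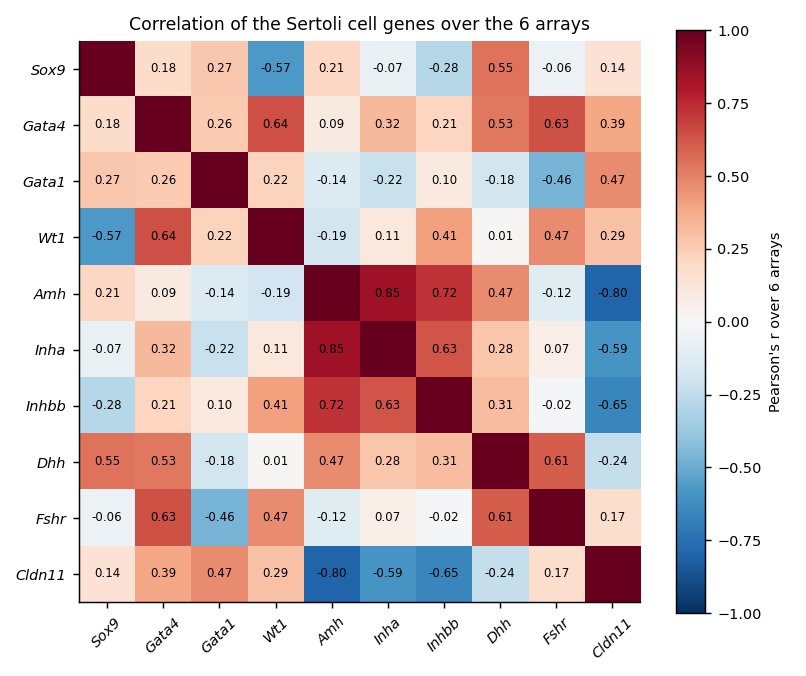
Pearson's r over the 6 arrays for each pair of the 10 Sertoli cell genes (log2 levels), printed in each cell. The hormone genes Amh, Inha and Inhbb have r of 0.63 to 0.85 among themselves and -0.59 to -0.80 with Cldn11.

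The genes most like Sox9 and Amh were looked up by Pearson's r over the 6 arrays among 14986 genes with a symbol that were above background on all 6. For Sox9 they were Casp2 (r = 0.997), Zfp60 (0.985) and Rybp (0.984), and for Amh they were Aggf1 (0.995), Uggt1 (0.987) and Mmut (0.986). Casp2 spanned only 4.02 on WT 2 to 4.23 on VSKO 1, so that its likeness to Sox9 is one of order and not of size. With 6 arrays and this many genes, values near 1 occur among the highest by the choice itself.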

How the data were processed

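Per the file headers, the deposited array files give for each of 62976 spots a processed signal, an intensity on a linear scale after background subtraction and detrending, with the mean and local background intensity and 0 or 1 quality flags (unit: other). The authors used Agilent Feature Extraction, of version 8.5.1.1 per the submitters' processing notes and 10.7.3.1 per the file headers. The authors' series table holds the same intensity divided by the array median. Probe positions are on mm9; gene names were updated through RefSeq (GRCm38.p6), by accession for 26762 of 55681 probes.

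Outlier spots were left out, log2 signals were shifted by the array's 75th percentile, spots of a probe were averaged, and probes well above background on both arrays of 1 or more groups were kept, with the brightest probe per gene (24543 genes). limma 3.58.1 (R 4.3.3) was run on all 6 arrays, fitting a mean for each genotype without an intensity trend (3 residual and 2.25 prior degrees of freedom), with Benjamini-Hochberg adjustment over all genes and a threshold of 0.05. The fit was tested on simulated data. The replicates are 2 animals per genotype; their numbers do not pair them.

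The 10 genes and the lists were chosen with earlier results of these data known. Named from each list are genes that passed and otherwise up to 4 of smallest p per comparison, and the 3 genes most like Sox9 and Amh. There were 16 alternatives. Sry, Bambi, F11r, Irx5, Epb42 and Rhag were among the genes too dim to test. Insl3 and Hbb-b1 were not analysed here, and some list genes that the rule names are not reported here.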

Additional observations from a re-analysis of the deposited data

How the results depend on the processing

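No Sertoli gene passed in any comparison under any of the 16 alternatives. Cldn11 ranged from 0.77 to 1.12 in VSKO minus WT (adjusted p 0.117 to 0.505) and from 0.85 to 1.43 in HEMI minus WT (0.107 to 0.511). The counts of all genes past the threshold moved with the setting; beyond fewer arrays or other genes tested, the cause was not tested. In VSKO against WT the 237 became 12 with no filter on dim probes, 42 with only the arrays of the 2 groups, and 0 to 69 with 1 array left out. In HEMI against WT the 29 became 55 with median scaling and with the series table, 131 with normexp, 68 with probes above background on all 6 arrays, 130 with an intensity trend and 0 with no filter (5278 at an unadjusted p under 0.05 by limma). They became 4 with only the 2 groups, and 0 to 8 with 1 array left out, 0 of them without HEMI 2, WT 1 or WT 2 (2460, 2189 and 2392 unadjusted). In VSKO against HEMI the 35 became 74 with median scaling and with the series table, 17 with quantile normalization, 5 with no filter, 15 with all 6 arrays above background and 0 with only the 2 groups (1737 unadjusted). With 1 array left out they were 0 to 41, and 0 without HEMI 2, WT 1 or WT 2 (1693, 1737 and 1737 unadjusted). Where a group kept 1 array, that array was taken to vary like the other groups.

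Replicate numbers were not found to pair the animals (correlations of deviations -0.037, -0.027 and -0.006). With the replicate block, 19, 0 and 0 genes passed in VSKO against WT, HEMI against WT and VSKO against HEMI (3438, 2792 and 1871 unadjusted).

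Over the 10 genes, 3 comparisons and 16 alternatives, 449 differences kept their sign and 31 changed it; none of these differences passed the test. With median scaling and with the series table, Wt1 in VSKO minus WT was -0.019, Dhh in HEMI minus WT 0.017 and Sox9 in VSKO minus HEMI -0.053. Dhh in HEMI minus WT was 0.10 with quantile normalization and 0.076 with normexp, and Sox9 in VSKO minus HEMI was -0.011 with normexp. With 1 array left out, VSKO minus WT ran from -0.12 to 0.53 for Sox9, -0.22 to 0.10 for Gata1, -0.21 to 0.23 for Wt1 and -0.33 to 0.012 for Inha. HEMI minus WT ran from -0.13 to 0.52 for Sox9, -0.075 to 0.26 for Gata4, -0.16 to 0.27 for Wt1, -0.22 to 0.18 for Dhh and -0.11 to 0.16 for Fshr. VSKO minus HEMI ran from -0.19 to 0.22 for Sox9, -0.060 to 0.29 for Amh, -0.082 to 0.27 for Gata4, -0.11 to 0.29 for Dhh, -0.26 to 0.046 for Inhbb and -0.49 to 0.092 for Cldn11. Without HEMI 2, the median of VSKO minus HEMI was 0.22 over the 10 genes and 0.12 over the other 28 Sertoli genes.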

Other observations

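Foxl2, a gene best known from the granulosa cells of the ovary, was well above background in these newborn testes. Its level was 3.91 and 4.12 in VSKO, 3.93 and 3.96 in HEMI and 4.71 and 4.16 in WT. Both WT animals were above the 4 carriers, and the difference from WT was -0.42 ± 0.21 in VSKO (limma adjusted p = 0.437). Its levels were singled out after they were seen. Rspo1, Wnt4 and the other ovarian pathway genes of the list gave a median of -0.11 in VSKO minus WT and 0.02 in VSKO minus HEMI.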
